A study of Homo sapiens with 48 samples.

Results

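The 51 genes described here are interferon-stimulated genes and the sensors of foreign nucleic acid that work beside them. They were chosen by symbol from a list of genes that interferon induces in many cell types, plus 6 sensors and adaptors, and all 51 were found among the 36843 genes of the count table. Interferons of type I and type III are secreted proteins that bind their receptors on the same or neighbouring cells and, through the kinases JAK1 and TYK2, activate transcription factors such as STAT2. With IRF9 these form a complex that binds interferon-stimulated response elements (ISREs) in promoters and switches on genes that block viral entry, degrade or edit viral RNA and mark proteins with ISG15. Cells start this programme when IFIH1 or RIG-I in the cytosol or TLR3 in endosomes meets double-stranded RNA, or when CGAS meets DNA, with MAVS and STING1 passing the RNA and DNA signals on.

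RNA-seq covered 30 libraries of 3 established lines of human pancreatic ductal adenocarcinoma, in 10 groups of 3. ASPC1 and CFPAC1 were each transfected with a control siRNA (siCTRL) or an siRNA against ZNF274 (siZNF274), a zinc finger repressor, or were given DMSO, the solvent, or 5 µM azacitidine (AZA), which blocks DNA methyltransferases. Panc3.27, described by the submitters as low in ZNF274 but holding more ZNF274 mRNA with vector than the other lines with DMSO, carried an empty vector or a vector overexpressing ZNF274 (OE). For H3K9me3, CUT&RUN compared ASPC1 cells with a control hairpin (shCTRL) and a ZNF274 hairpin (shZNF274), each induced with 1 µg/ml doxycycline for 9 days, with IgG controls and 3 libraries labelled for each group. The labels give no time for the RNA-seq treatments, and no untreated or mock-transfected group was analysed here. The siCTRL and DMSO groups of a line therefore differ in transfection, in the siRNA itself, in the solvent and in any handling that went with each, and these cannot be told apart. The submitters describe the replicates as biological; each cell line is 1 genetic background, so p-values speak for the spread of cultures of that line.

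Each library held between 31415743 and 43383141 counts. Values below are CPM, the gene's share of its library's counts, scaled by the trimmed mean of M-values. A fold change on the log2 scale is given ± its standard error. A gene was called higher or lower at a Benjamini-Hochberg adjusted p under 0.05 over all genes tested (edgeR). The targeted gene itself checks the labels. ZNF274 was 17.6 ± 2.61 CPM in ASPC1 siCTRL and 19.4 ± 2.93 in the libraries labelled siZNF274 (SD, n = 3; log2 fold change 0.15 ± 0.11, edgeR adjusted p = 0.305), and 34.4 ± 1.12 against 32.8 ± 1.47 in CFPAC1 (-0.07 ± 0.06, edgeR adjusted p = 0.423), so no lower ZNF274 mRNA was detected in those libraries. With DMSO it was 13.7 ± 1.18 CPM in ASPC1 and 28.5 ± 0.453 in CFPAC1 (SD, n = 3), both below the Panc3.27 vector libraries, a difference of lines that was not tested. In Panc3.27 OE it was 2.76-fold higher (135.7 ± 2.90 against 49.1 ± 1.54 CPM, SD, n = 3; edgeR adjusted p = 4.17e-11). Ductal epithelial markers summed to between 5166 and 15463 CPM and leukocyte markers to between 1.07 and 13.3 CPM over the 30 libraries, with 3 to 6 of the 12 leukocyte markers at 0 in a group.

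Promoters of the genes were read first, because the results below turn on genes that moved together. RefSeq (GRCh38.p14) windows from 250 bases before to 50 bases after the annotated start were matched for 39 of the 51 genes; IFIT2, OAS2, OASL, IFITM2, MX2, GBP2, USP18, TRIM22, IRF7, DHX58, STING1 and CGAS had no match. The ISRE was searched as GAAA and again GAAA with any 2 bases between them, on both strands, and was present for 26 of the 39 genes (66.7%), against 4.38% of 27305 genes in the whole promoter table. By promoter, 30 of 52 windows held it (57.7%, against 3.57% of 35116), and 16 of the 52 held at least 2 matches. With 1 mismatch allowed, it was present for 32 of the 39 genes (82.1%, against 37.7%). Most of the genes were chosen because interferon induces them, so a high share follows from that choice and is no result of these data. The gamma-activated site, searched as TTCNNNGAA, was present for 12 of 39 genes (30.8%, against 9.38%). Both kinds of match were present in 8 windows, where they may share bases. The windows of 6 genes with the ISRE letters and 2 without them are shown, with the matching bases in capitals on whichever strand they lie.
IFI44L, chr1:78620278-78620387, plus strand: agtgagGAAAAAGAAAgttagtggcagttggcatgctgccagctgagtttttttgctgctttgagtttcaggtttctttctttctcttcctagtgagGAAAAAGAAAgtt
IFI6, chr1:27672268-27672357, minus strand: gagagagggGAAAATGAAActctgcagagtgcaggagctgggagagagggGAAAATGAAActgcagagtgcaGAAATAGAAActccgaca
ISG15, chr1:1013372-1013411, plus strand: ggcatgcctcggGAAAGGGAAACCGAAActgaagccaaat
IFIT1, chr10:89392498-89392537, plus strand: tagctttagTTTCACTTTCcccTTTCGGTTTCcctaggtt
BST2, chr19:17405733-17405772, minus strand: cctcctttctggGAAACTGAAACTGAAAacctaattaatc
EPSTI1, chr13:42992267-42992306, minus strand: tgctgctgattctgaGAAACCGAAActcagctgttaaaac
MAVS, chr20:3846754-3846793, plus strand: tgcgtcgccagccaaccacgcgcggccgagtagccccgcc
XAF1, chr17:6755966-6756005, plus strand: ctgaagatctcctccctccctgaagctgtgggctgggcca
IFI6 carried 3 matches, and IFI44L, ISG15, IFIT1 and BST2 carried 2 each. In ISG15 and BST2 the 2 matches overlap, so that GAAA appears 3 times in a row at a fixed spacing. In IFI44L the same stretch around the match occurs at 164 and again at 73 bases before the start. MAVS and XAF1 held none of these letters anywhere in their windows, which says nothing of a factor binding elsewhere.

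In CFPAC1, the siCTRL libraries had higher levels of nearly all of these genes than the DMSO libraries. Of the 51 genes, 44 were called higher and 0 lower, with a median log2 fold change of 0.87, where 7.3% of the 18103 genes tested were called higher, 8.22% were called lower and the median over all genes was 0.01. Without adjustment, 46 were higher and 1 lower at p under 0.05, and DESeq2 called 44 higher and 0 lower. The change was at least 2-fold for 22 of them, against 0.967% of all genes tested. For 45 genes every siCTRL library lay above every DMSO library, against 13.1% of all genes. In bulk RNA, more cells with a gene on and more RNA per cell cannot be told apart.

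**Figure D1:**
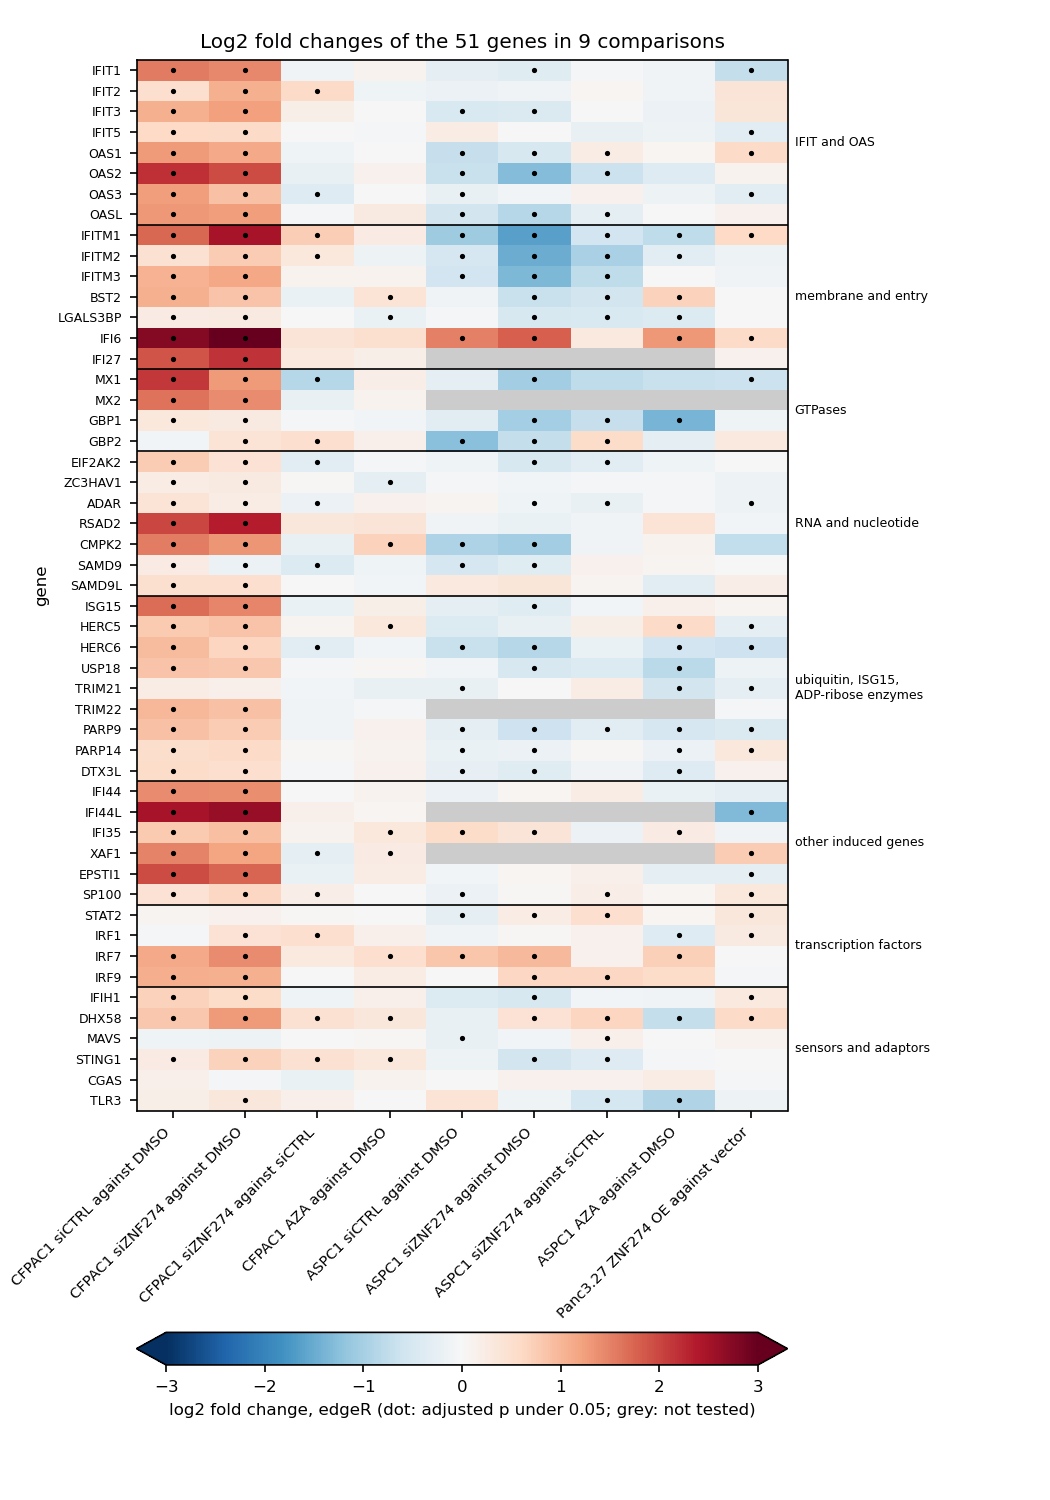
Log2 fold changes (edgeR) of the 51 genes, in rows by role, for 9 comparisons in columns; red is higher in the first-named group, blue lower, a dot marks an adjusted p under 0.05 and grey marks a gene that was not tested in that line. The first column, CFPAC1 siCTRL against DMSO, holds 44 dots, all red, and the fifth, the same contrast in ASPC1, holds 3 red and 19 blue.

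The IFIT and OAS families, which bind or sense viral RNA, were higher as a whole. All 8 were called, with a median log2 fold change of 1.26. OAS2, which makes the adenylate chains that switch on RNase L, was at 25.9, 26.6 and 27.7 CPM with DMSO and at 105, 134 and 126 with siCTRL. The siCTRL libraries were all far above the DMSO libraries (log2 fold change 2.19 ± 0.14, 4.55-fold, edgeR adjusted p = 4.54e-08). IFIT1, which holds viral RNA that lacks the host's cap methylation, was at 26.6, 25.4 and 26.7 CPM and at 68.8, 88.2 and 74.4 in the same order (log2 fold change 1.56 ± 0.12, edgeR adjusted p = 2.48e-07). The relatives OAS1, OAS3 and OASL were 2.42, 2.39 and 2.46 times as high. IFIT3, IFIT5 and IFIT2 were 2.08, 1.5 and 1.41 times as high, the lowest in the family being IFIT2. IFIT1, IFIT2 and IFIT3 overlap LIPA in the annotation, and the strand setting of the counting is not given.

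Membrane and entry factors followed the same direction, 7 of 7 called with a median of 1.07. IFI6, a small interferon-induced membrane protein, had the largest change of the 51. It was at 11.5, 12.9 and 19 CPM with DMSO and 57.8, 106 and 126 with siCTRL, and the lowest siCTRL library, replicate 1, was still above the highest DMSO library (6.69-fold, log2 fold change 2.74 ± 0.24, edgeR adjusted p = 1.40e-06). IFI27, of the same family, was at 116, 116 and 144 and then 336, 516 and 535 CPM (3.68-fold, log2 fold change 1.88 ± 0.14, edgeR adjusted p = 2.48e-07). IFITM1, which hinders fusion of enveloped viruses with the cell, was at 14.4, 14.1 and 13.4 CPM with DMSO and 32.3, 51.7 and 55.0 with siCTRL (3.31-fold, log2 fold change 1.73 ± 0.16, edgeR adjusted p = 2.22e-06). Its close paralogs IFITM3 and IFITM2, whose reads can be hard to assign, were 2.07 and 1.38 times as high. BST2, or tetherin, which holds budding virions at the cell surface, was 2.10 times as high, and the secreted glycoprotein LGALS3BP 1.19 times.

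Among the GTPases, MX1, which traps incoming viral ribonucleoproteins, was at 57.8, 61.8 and 69.6 CPM with DMSO and 236, 313 and 279.8 with siCTRL (4.38-fold, log2 fold change 2.13 ± 0.14, edgeR adjusted p = 5.88e-08). MX2, its relative that restricts HIV, was at 9.93, 10.8 and 11.4 and 29.4, 37.6 and 31.9 CPM (3.08-fold, log2 fold change 1.62 ± 0.13, edgeR adjusted p = 3.92e-07). Both MX genes were thus several-fold up with no overlap between groups, a lack of overlap for which genes were partly named. The guanylate-binding proteins are better known as targets of interferon gamma. GBP1 was 1.24 times as high without overlap (edgeR adjusted p = 0.0116, but 0.0527 without DMSO replicate 2), and GBP2 was at 79.0, 77.3 and 78.7 CPM against 74.5, 70.1 and 77.6 with siCTRL and was not called (log2 fold change -0.08 ± 0.06, edgeR adjusted p = 0.415).

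The 7 genes that act on RNA or nucleotides were all called higher, but with a lower median of 0.48. RSAD2, or viperin, which makes a chain-terminating nucleotide, was at 3.06, 3.26 and 3.98 CPM and rose to 12.3, 13.4 and 15.7 (4.01-fold, log2 fold change 2.01 ± 0.15, edgeR adjusted p = 3.01e-07). Its neighbour CMPK2, a nucleotide kinase, was at 3.65, 5.16 and 5.11 and 11.3, 15.1 and 14.1 CPM (2.91-fold, log2 fold change 1.54 ± 0.16, edgeR adjusted p = 4.94e-06); the models of these genes overlap. The double-stranded RNA readers changed less: the kinase EIF2AK2 (PKR) was 1.69 times as high and the RNA editor ADAR 1.33 times. ZC3HAV1, SAMD9 and SAMD9L were between 1.16 and 1.40 times as high. ZC3HAV1 lost its call without siCTRL replicate 1 or 2 or DMSO replicate 3 (adjusted p up to 0.115), and SAMD9 without siCTRL replicate 2 (adjusted p = 0.0614).

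ISG15, the ubiquitin-like protein that interferon attaches to other proteins, was at 46.0, 47.3 and 59.3 CPM with DMSO and 118, 191 and 178 with siCTRL (3.19-fold, log2 fold change 1.67 ± 0.16, edgeR adjusted p = 2.75e-06). The enzymes around it moved less. HERC5, which attaches ISG15, and USP18, which removes it, were 1.71 and 1.82 times as high, and the ADP-ribose enzymes PARP9 and PARP14 were 1.83 and 1.44 times as high. In this group of 9, 8 were called higher and TRIM21, the cytosolic antibody receptor, was not (log2 fold change 0.23 ± 0.10, edgeR adjusted p = 0.145).

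All 6 of the remaining induced genes were called higher, with the largest group median, 1.45. IFI44L was at 16.5, 15.4 and 16.4 CPM with DMSO and 81.8, 96.1 and 88.3 with siCTRL, a tight pair of groups (5.52-fold, log2 fold change 2.46 ± 0.12, edgeR adjusted p = 6.53e-09). EPSTI1 was at 2.45, 2.7 and 2.28 and 7.59, 11.0 and 10.2 CPM (3.87-fold, log2 fold change 1.95 ± 0.16, edgeR adjusted p = 7.19e-07). XAF1, a partner of the apoptosis inhibitor XIAP, and IFI44 were 2.82 and 2.66 times as high, IFI35 1.73 times and the nuclear body protein SP100 1.34 times.

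The transcription factors split evenly. IRF7, which drives interferon alpha genes, was at 17.9, 20.2 and 22.7 and 33.1, 49.8 and 51.1 CPM (log2 fold change 1.14 ± 0.13, edgeR adjusted p = 1.39e-05), and IRF9, the DNA-binding subunit that joins STAT2, was 2.13 times as high (edgeR adjusted p = 2.39e-06). STAT2 (log2 fold change 0.09 ± 0.05, edgeR adjusted p = 0.280) and IRF1 (log2 fold change -0.05 ± 0.07, edgeR adjusted p = 0.676) were not called, and their groups overlapped.

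Of the 6 sensors and adaptors, 3 were called higher. IFIH1 (MDA5), which detects long double-stranded RNA, was at 19, 20.0 and 21.0 CPM with DMSO and 30.7, 34.1 and 32.4 with siCTRL (log2 fold change 0.70 ± 0.06, edgeR adjusted p = 1.93e-06). DHX58 (LGP2), its helper, was at 12, 13.1 and 12.5 and 18.4, 24.2 and 23.6 (log2 fold change 0.82 ± 0.10, edgeR adjusted p = 2.61e-05). STING1, the adaptor downstream of DNA sensing, was at 43.9, 48.4 and 41.8 and 50.5, 52.9 and 54.6 (log2 fold change 0.24 ± 0.06, edgeR adjusted p = 0.0140), a small change that lost its call without siCTRL replicate 2 or 3 or DMSO replicate 1 or 3, with adjusted p up to 0.0679. The adaptor MAVS was at 278, 298 and 267 CPM with DMSO and 272, 253 and 244 with siCTRL, overlapping groups (log2 fold change -0.13 ± 0.06, edgeR adjusted p = 0.127), and was called lower only without siCTRL replicate 1 (edgeR adjusted p = 0.0418). CGAS was at 20.8, 20.6 and 22.8 and 23.7, 23.2 and 24.4 CPM, which did not overlap but missed the threshold (log2 fold change 0.15 ± 0.08, edgeR adjusted p = 0.208). TLR3 was at 35.5, 31.1 and 33.9 and 44.1, 37.0 and 33.1 CPM and overlapped (log2 fold change 0.19 ± 0.09, edgeR adjusted p = 0.171). The 2 RNA helicases thus changed by less than most effectors, and the mRNAs of MAVS, CGAS and TLR3 were not shown to differ.

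**Figure D2:**
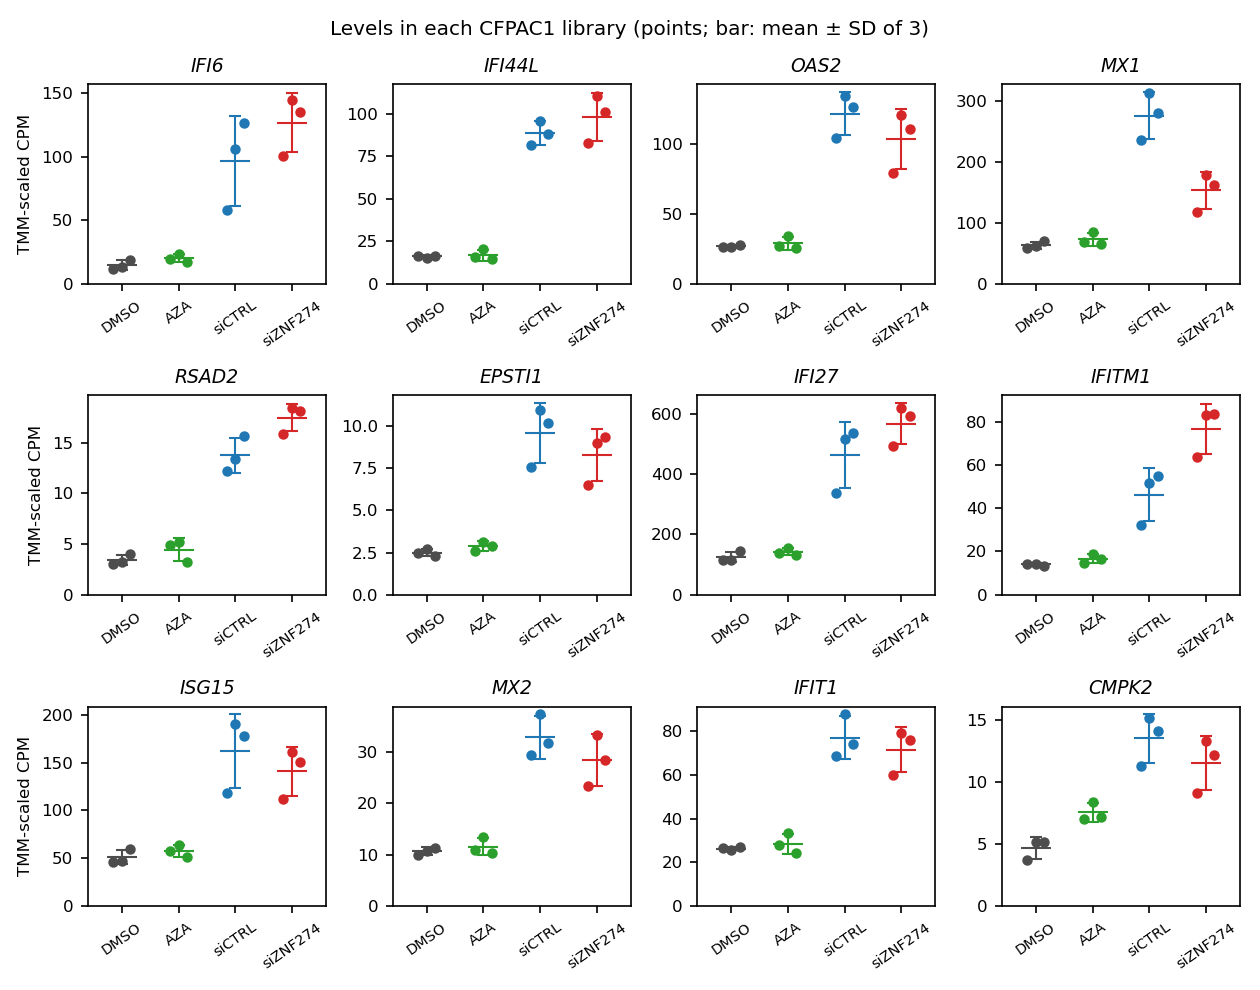
Level (CPM scaled by the trimmed mean of M-values, linear axes from 0) of the 12 genes with the largest change between CFPAC1 siCTRL and DMSO in each of the 12 CFPAC1 libraries; points are libraries and bars the mean ± SD of 3. For IFI6 the siCTRL libraries range from 57.8 to 126 CPM and the DMSO libraries from 11.5 to 19; the AZA libraries lie close to DMSO in most panels.

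The CFPAC1 libraries of a group were not alike for these genes. Over the 51 genes, siCTRL replicate 1 was the lowest of its group for 33 and replicate 2 the highest for 27. The median shift of the genes from the DMSO mean, on the log2(CPM + 0.5) scale, was 0.70, 0.95 and 0.80 in the 3 siCTRL libraries. It was 0.76, 0.90 and 0.86 in the siZNF274 libraries, of which replicate 1 was the lowest for 39 genes. Leaving out any 1 library left 41 to 44 genes called higher. The genes took 0.65% to 0.73% of all counts with siCTRL and 0.42% to 0.43% with DMSO. Leukocyte markers summed to 2.67 to 3.66 CPM with siCTRL and 3.23 to 3.57 with DMSO, with 5 of 12 at 0 in both groups, CD3D and MS4A1 among them. Fibroblast markers summed to between 100.4 and 146.8 CPM with siCTRL and between 146.8 and 158.5 with DMSO. Endothelial markers, at low levels, were higher with siCTRL without overlap, at 1.87 to 2.06 CPM against 1.19 to 1.39 with DMSO, with CDH5 at 0 with siCTRL. The part of these markers in the result was not tested.

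**Figure D3:**
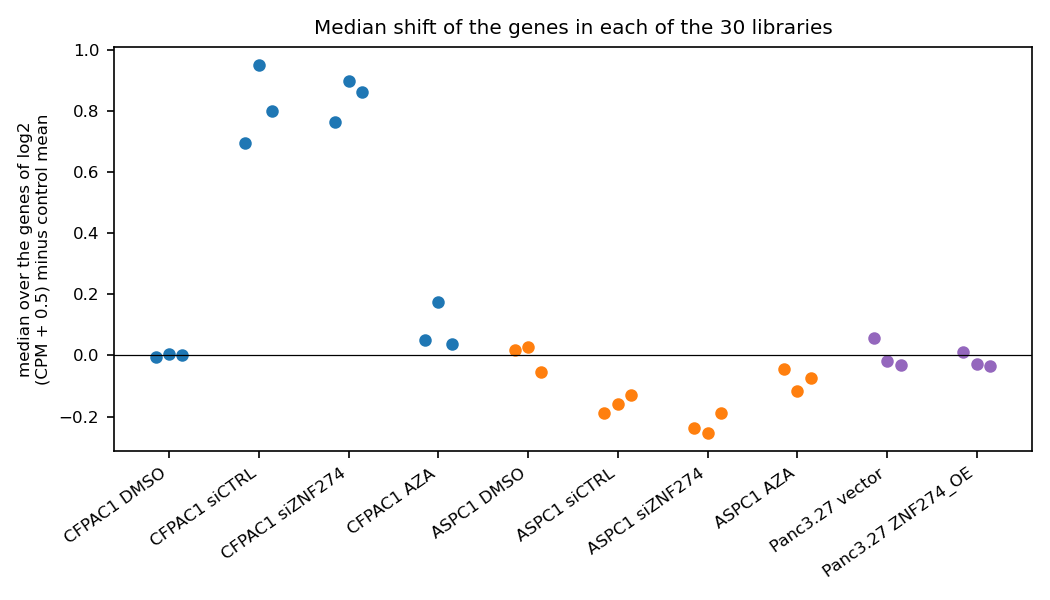
Median over the genes of log2(CPM + 0.5) minus the mean of the control libraries of the same line (DMSO, or vector in Panc3.27), for each of the 30 libraries; 1 point is 1 library. The 6 transfected CFPAC1 libraries lie between 0.70 and 0.95, the CFPAC1 AZA libraries between 0.04 and 0.18, and the 6 transfected ASPC1 libraries between -0.25 and -0.13.

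The pathway around the genes was described from lists of 107 other genes, 106 of them in the table. No interferon of type I, II or III other than IFNE was tested, because their counts were too low: over the 30 libraries IFNB1 had 0 to 3 counts, IFNL1 0 to 9, IFNL2 0 to 5, IFNL3 0 to 2 and IFNG 0. IFNE, an interferon of epithelia, was lower in CFPAC1 siCTRL (1.87 ± 0.199 against 2.84 ± 0.829 CPM, SD, n = 3; log2 fold change -0.61 ± 0.19, edgeR adjusted p = 0.0387). Of 17 receptors, kinases, STATs and their inhibitors, 5 were called higher and 1 lower. Of 19 genes of nucleic acid sensing, 5 were higher and 0 lower, led by ZBP1, a sensor of Z-form nucleic acid (log2 fold change 1.68 ± 0.29, edgeR adjusted p = 7.16e-04). ZBP1 had 11 to 23 counts per library with DMSO and 49 to 75 with siCTRL. Of 44 further interferon-stimulated genes, 31 were higher and 0 lower with a median of 0.45, led by the helicase DDX60 (log2 fold change 1.60 ± 0.14, edgeR adjusted p = 1.35e-06), LAMP3 (log2 fold change 1.27 ± 0.13, edgeR adjusted p = 4.30e-06) and PLSCR1 (log2 fold change 0.93 ± 0.05, edgeR adjusted p = 2.86e-08). These counts stand against the 7.3% and 8.22% of all genes called in this comparison.

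The promoter windows shown above can be set beside this response. Of the 26 genes with an ISRE match, 24 were called higher, with a median log2 fold change of 1.05 and a range of 0.19 to 2.74. Of the 13 without, 10 were called higher, with a median of 0.48 and a range of -0.13 to 1.54. Genes without the letters included OAS1, CMPK2, XAF1 and IRF9, which were called higher, and MAVS, STAT2 and IRF1, which were not. Among genes outside the 51, 69 of 482 with a match were called higher (14.3%), against 902 of 11845 without (7.62%). Other interferon-stimulated genes, such as the 44 described above of which 31 were called higher, were not set apart in these shares. Their part in the difference was not tested. The matches nearest the start lay between 145 bases before it, in RSAD2, and 17 bases after it, in TRIM21. A letter match is a description of the window and not a measured binding site.

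**Figure D4:**
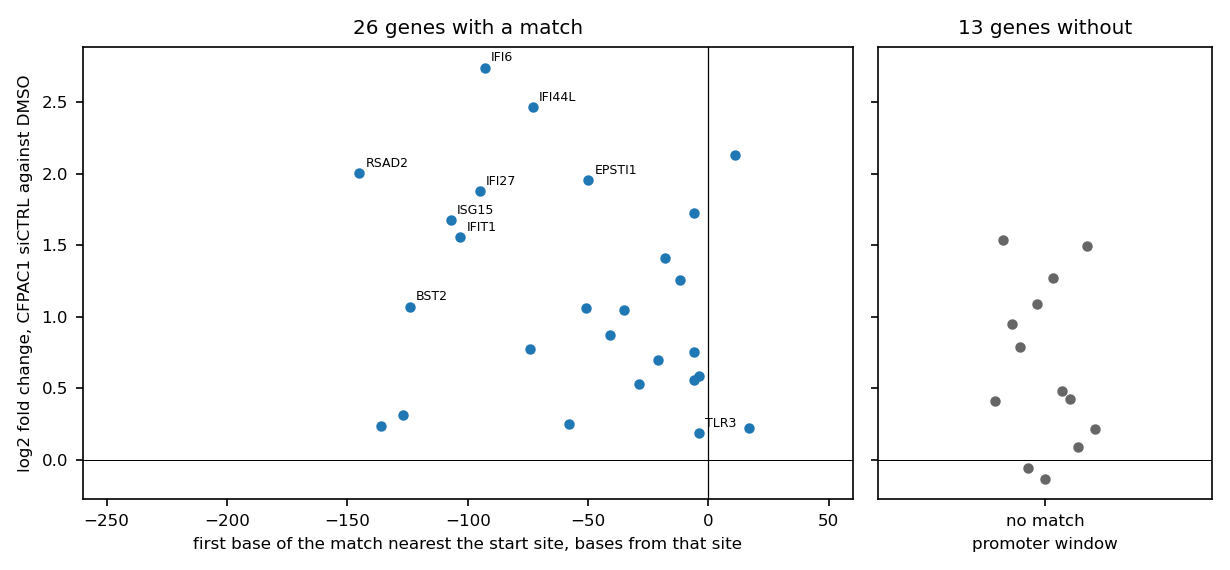
Log2 fold change of CFPAC1 siCTRL against DMSO (vertical axis, both panels) for the 39 genes with a promoter window. Left, the 26 genes with an ISRE match, by the distance in bases of the match nearest the start site; right, the 13 genes without a match, spread sideways for legibility. Genes with a match reach 2.74 (IFI6) and genes without reach 1.54 (CMPK2), and both panels hold values near 0.

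The libraries labelled siZNF274 in CFPAC1 were also above DMSO for most of the genes: 46 of the 51 genes were called higher and 1 lower, with a median log2 fold change of 0.87, where 15.9% of all genes were called higher and 18.2% lower. This comparison shares its DMSO libraries with the one above, so the 2 are not independent. IFI44L, as an example, was at 83.1, 111 and 101 CPM with siZNF274, beside 81.8, 96.1 and 88.3 with siCTRL and 16.5, 15.4 and 16.4 with DMSO. RSAD2 was at 15.9, 18.4 and 18.2 CPM, all above its 12.3, 13.4 and 15.7 with siCTRL, a difference that was not called. ISG15 was at 112, 161 and 151 CPM, which overlapped its 118, 191 and 178 with siCTRL. Both genes were well above DMSO. GBP2, IRF1 and TLR3 were called higher with siZNF274 but not with siCTRL, and SAMD9 was called higher with siCTRL and lower with siZNF274 (log2 fold change 0.24 ± 0.06 and -0.17 ± 0.06 against DMSO). That lower call was lost without DMSO replicate 1 or 3 or any 1 of the 3 siZNF274 libraries (adjusted p up to 0.127), and the higher one without siCTRL replicate 2 (adjusted p = 0.0614).

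ASPC1 did not show this elevation. Of the 46 genes tested there, 3 were called higher and 19 lower in siCTRL against DMSO, with a median of -0.22, where 15.9% of 16186 genes were called higher and 14.2% lower. Ductal epithelial markers together were at 13776 to 15463 CPM with DMSO and 9875 to 11231 with siCTRL, fibroblast markers at 101.6 to 113.4 and 116.6 to 128.1, and endothelial markers at 0.40 to 0.563 and 0.637 to 0.884; their part in the result was not tested. OAS1 was at 129, 121 and 123 CPM with DMSO and 81.3, 77.1 and 71.8 with siCTRL (log2 fold change -0.70 ± 0.05, edgeR adjusted p = 1.18e-07), the reverse order of CFPAC1. IFITM1 was at 5.45, 6.17 and 5.49 and 2.92, 2.37 and 2.92 CPM (log2 fold change -1.06 ± 0.14, edgeR adjusted p = 3.06e-05). GBP2 had the largest fall, from 13.7, 16.5 and 13.5 to 5.62, 6.5 and 6.09 CPM (log2 fold change -1.26 ± 0.11, edgeR adjusted p = 3.98e-07). In these 3 genes no library of one group overlapped the other, but genes were named partly for that.

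Other ASPC1 effectors were lower too. The log2 fold change was -0.66 ± 0.17 for OAS2, -0.56 ± 0.08 for OASL, -0.57 ± 0.08 for IFITM3, -0.50 ± 0.11 for IFITM2, -0.51 ± 0.09 for SAMD9 and -0.93 ± 0.27 for CMPK2, whose call was lost without siCTRL replicate 2 or 3 (edgeR adjusted p up to 0.0677). The 3 genes called higher were IRF7, at 11.2, 10.9 and 11.9 and then 17.5, 21.0 and 22.5 CPM (log2 fold change 0.84 ± 0.09, edgeR adjusted p = 3.31e-06), IFI35 (log2 fold change 0.56 ± 0.08, edgeR adjusted p = 1.06e-04) and IFI6. IFI6 rested on 7 to 10 counts per library with DMSO and 12 to 28 with siCTRL (log2 fold change 1.5 ± 0.43, edgeR adjusted p = 0.0154), and its call was lost without siCTRL replicate 3 or DMSO replicate 2 or 3 (adjusted p up to 0.0826). The siZNF274 libraries, set against the same DMSO libraries, had 6 of 46 genes higher and 25 lower (median -0.29), where 23.9% and 25% of all genes were called. Among the sensors and adaptors in siCTRL against DMSO, MAVS was lower (log2 fold change -0.22 ± 0.05, edgeR adjusted p = 0.00155), and IFIH1 (-0.40 ± 0.16), DHX58 (-0.22 ± 0.14), STING1 (-0.16 ± 0.07), CGAS (-0.02 ± 0.10) and TLR3 (0.41 ± 0.18) were not called. Of 38 further interferon-stimulated genes tested in ASPC1, 11 were called higher and 11 lower. The 5 largest of these were all higher: SLFN5 (1.87), LAMP3 (1.86), APOL6 (1.68, from 43 ± 1.31 to 138 ± 3.85 CPM), WARS1 (1.32) and UBE2L6 (1.31). Of these, LAMP3 rests on 3 to 6 counts per library with DMSO and 14 to 17 with siCTRL. UBE2L6 rests on 7 to 12 and 20 to 24.

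The difference between the lines was tested itself, as the interaction of line and treatment in a fit of the 24 ASPC1 and CFPAC1 libraries. Of the 51 genes, 40 had a higher siCTRL-to-DMSO change in CFPAC1 than in ASPC1 and 0 a lower one, with 7.32% and 10.5% of 19094 genes called in those directions. Without adjustment, 41 were higher and 0 lower at p under 0.05, the same counts as DESeq2 called. Among the genes called, OAS2 had the largest interaction (2.83 ± 0.25, edgeR adjusted p = 2.59e-09), followed by IFITM1 (2.78 ± 0.24, edgeR adjusted p = 2.67e-09). IFI27 and MX2 also passed but rest on 3 to 12 and 0 to 8 counts per ASPC1 library. Their calls were lost when 1 ASPC1 library was left out, any but siCTRL replicate 2 for IFI27 (adjusted p up to 0.0867) and siCTRL replicate 1 or 2 or DMSO replicate 1 or 2 for MX2 (up to 0.282); XAF1 lost its call without ASPC1 DMSO replicate 1 (adjusted p = 0.184). In all, 15 genes were called higher in CFPAC1 and lower in ASPC1, among them OAS1, OAS2, OAS3, OASL, IFITM1, IFITM2, IFITM3, IFIT3 and PARP9. Of all genes tested, 7.3% were called higher in CFPAC1 and 14.2% lower in ASPC1. The share with both calls was not worked out. The ASPC1 call of OAS3 was lost without siCTRL replicate 3 or DMSO replicate 1 or 2 (adjusted p up to 0.0747), and that of PARP9 without DMSO replicate 1 (adjusted p = 0.0532). HERC6 lost its ASPC1 call without the same libraries as OAS3 (edgeR adjusted p up to 0.124). SP100 lost it without siCTRL replicate 1 or 2 or DMSO replicate 1 (edgeR adjusted p up to 0.183). The losses of CMPK2 in ASPC1 and SAMD9 in CFPAC1 are given above. Only IFI6, IFI35 and IRF7 were called higher in both lines, where 7.3% of all genes were called higher in CFPAC1 and 15.9% in ASPC1.

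**Figure D5:**
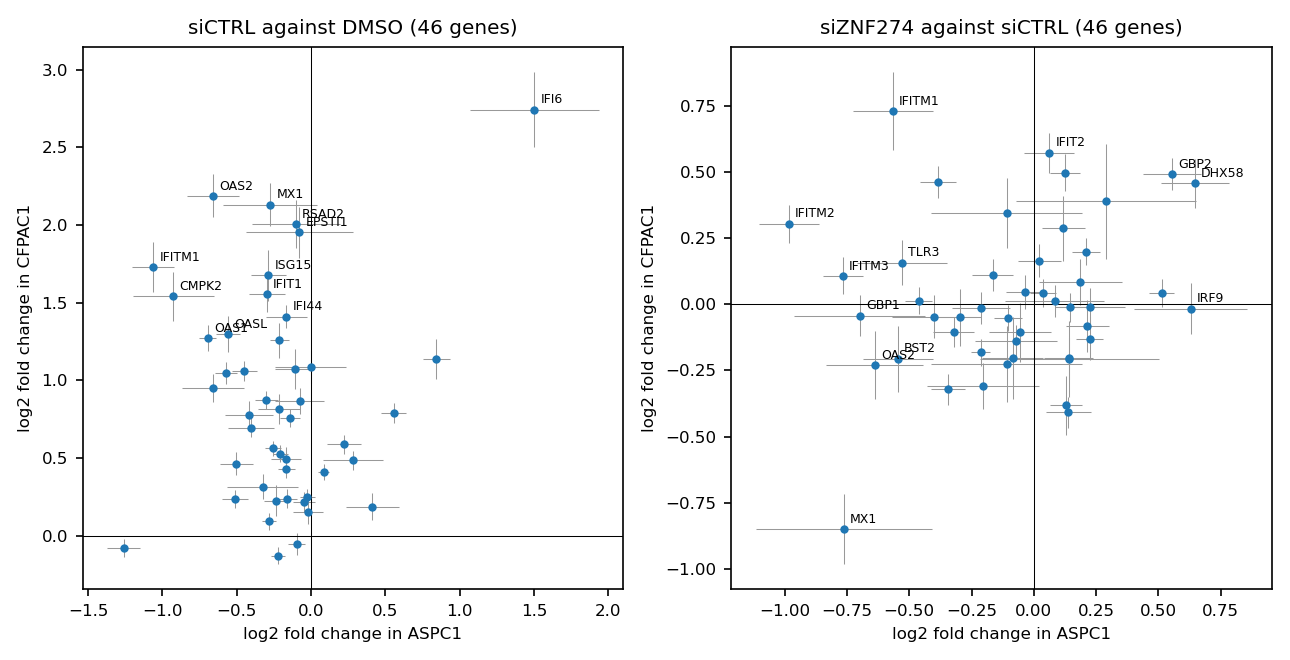
Log2 fold change in CFPAC1 (vertical) against ASPC1 (horizontal) for the 46 genes tested in both lines, with lines of ± 1 standard error; left siCTRL against DMSO, right siZNF274 against siCTRL. On the left nearly all points lie above 0 on the CFPAC1 axis, up to 2.74 for IFI6, and most lie left of 0 on the ASPC1 axis; on the right points lie on both sides of both zero lines, with MX1 at -0.85 in CFPAC1.

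The lines also differed with DMSO alone. Of the 51 genes, 43 were higher in CFPAC1 than in ASPC1 and 7 lower, with a median log2 difference of 1.82, where 41.0% and 36.3% of all genes were called. In every ASPC1 library 7 genes stayed under 1 CPM: IFI27, MX1, MX2, RSAD2, TRIM22, IFI44L and XAF1. MX1, for example, was at 0.895, 0.986 and 0.586 CPM in ASPC1 DMSO and 57.8, 61.8 and 69.6 in CFPAC1 DMSO. IFI27 had 3 to 12 counts in any ASPC1 library and 116, 116 and 144 CPM in CFPAC1 DMSO. GBP1 (1.59, 1.80 and 1.36 against 64.6, 58.0 and 63.4 CPM) and SAMD9L (2.33, 2.73 and 1.84 against 87.8, 80.1 and 81.7 CPM) were likewise far lower in ASPC1.

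Of the sensors, TLR3 (2.79, 2.25 and 2.00 CPM in ASPC1, 35.5, 31.1 and 33.9 in CFPAC1) and IFIH1 (2.89, 2.82 and 2.24 and 19, 20.0 and 21.0) were several-fold higher in CFPAC1, and DHX58 and STING1 were 2.23 and 1.84 times as high. The 7 genes lower in CFPAC1 were OASL, OAS1, TRIM21, MAVS, CGAS, EIF2AK2 and ZC3HAV1. ZC3HAV1 lost that call without ASPC1 DMSO replicate 1 or 2 or CFPAC1 DMSO replicate 3 (adjusted p up to 0.251). OAS1 was at 129, 121 and 123 CPM in ASPC1 and 46.4, 47.3 and 50.8 in CFPAC1, and MAVS at 392, 394 and 375 and 278, 298 and 267. In Panc3.27, which was fitted alone and not tested against the others, 5 genes stayed under 1 CPM: OASL, MX2, RSAD2, CMPK2 and IFI44L.

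The contrast of siZNF274 with siCTRL, which the study made to ask what ZNF274 loss does, moved some of the genes in each line, in both directions. In ASPC1, 7 of 46 genes were called higher and 13 lower (median -0.06), where 21.5% of all genes were called higher and 24.2% lower. In CFPAC1, 8 of 51 were called higher and 7 lower (median -0.01), where 11.6% and 13.2% of all genes were called. The CFPAC1 count of 7 lower was 4 without siCTRL replicate 2 and 3 without siZNF274 replicate 1. These shares are near those of all genes. ZNF274 mRNA was not lower in these libraries, as given above. In ASPC1, ductal epithelial markers together were at 9875 to 11231 CPM with siCTRL and 7206 to 7925 with siZNF274, fibroblast markers at 116.6 to 128.1 and 135.2 to 146.2, endothelial markers at 0.637 to 0.884 and 1.10 to 1.37 and leukocyte markers at 1.08 to 1.16 and 1.34 to 1.91. In CFPAC1, ductal epithelial markers together were at 9318 to 10570.2 CPM with siCTRL and 8293 to 8643 with siZNF274 and leukocyte markers at 2.67 to 3.66 and 3.98 to 5.51. The part of these markers in the results was not tested.

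In ASPC1 the membrane and entry factors were lower, 5 of 6 called. IFITM2 was at 22.1, 23.4 and 20.9 CPM with siCTRL and 9.95, 13.2 and 10.6 with siZNF274 (log2 fold change -0.98 ± 0.12, edgeR adjusted p = 6.54e-06). IFITM3 was at 23.5, 27.8 and 23.9 and 14.4, 15.5 and 14.4 CPM (log2 fold change -0.77 ± 0.08, edgeR adjusted p = 1.48e-06), and IFITM1, BST2 and LGALS3BP fell by smaller log2 fold changes (-0.57 ± 0.16, -0.55 ± 0.14 and -0.46 ± 0.05). In all 5 the groups did not overlap, but genes were named partly for that. OAS2 was lower too (log2 fold change -0.64 ± 0.20, edgeR adjusted p = 0.0140), but its call was lost without siCTRL replicate 2 or siZNF274 replicate 1 (adjusted p up to 0.0736). STAT2 was at 36.6, 35.3 and 36.0 CPM and 49.7, 50.2 and 54.2, higher with siZNF274 (log2 fold change 0.51 ± 0.05, edgeR adjusted p = 5.81e-07). GBP2 (log2 fold change 0.55 ± 0.12, edgeR adjusted p = 0.00100) was also higher, and IRF9 (log2 fold change 0.63 ± 0.23, edgeR adjusted p = 0.0338) lost its call without any 1 library but siCTRL replicate 1 (adjusted p up to 0.156). Of the sensors and adaptors, DHX58 was at 3.97, 4.59 and 4.88 and then 6.31, 7.2 and 7.52 CPM (log2 fold change 0.65 ± 0.14, edgeR adjusted p = 0.00112) and MAVS was higher by less (0.15 ± 0.05, a call lost without siCTRL replicate 1 or siZNF274 replicate 1, adjusted p up to 0.0754). STING1 fell from 20.0, 19.6 and 20.5 to 15.2, 14.9 and 15.9 CPM (log2 fold change -0.38 ± 0.07, edgeR adjusted p = 4.17e-04), and TLR3 fell with a call lost without siCTRL replicate 2 or siZNF274 replicate 2 or 3, adjusted p up to 0.121 (log2 fold change -0.53 ± 0.18, edgeR adjusted p = 0.0246). IFIH1 (-0.07 ± 0.16) and CGAS (0.14 ± 0.10) were not called.

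In CFPAC1 the largest difference was in MX1, at 236, 313 and 279.8 CPM with siCTRL and 119, 179 and 162 with siZNF274 (log2 fold change -0.85 ± 0.13, edgeR adjusted p = 2.47e-04). The siZNF274 libraries were all below siCTRL and all above the 57.8 to 69.6 CPM of DMSO; MX1 overlaps TMPRSS2 in the annotation. IFITM1 was higher, at 32.3, 51.7 and 55.0 and 63.6, 83.4 and 83.8 CPM (log2 fold change 0.73 ± 0.15, edgeR adjusted p = 0.00192), and so was IFIT2, at 29.6, 34.6 and 31.8 and 46.8, 48.7 and 47.4 (log2 fold change 0.57 ± 0.08, edgeR adjusted p = 5.10e-05). Genes here were named partly because their groups did not overlap. IRF1 (0.50 ± 0.07), GBP2 (0.49 ± 0.06), STING1 (0.46 ± 0.06), DHX58 (0.46 ± 0.09) and IFITM2 (0.31 ± 0.07) were higher without overlap. SAMD9 (-0.41 ± 0.06), EIF2AK2 (-0.32 ± 0.06), OAS3 (-0.38 ± 0.11) and HERC6 (-0.31 ± 0.09) were lower without overlap; OAS3 and HERC6 lost the call without siCTRL replicate 2 or siZNF274 replicate 1 (adjusted p up to 0.119 and 0.0881). IFIH1 (-0.14 ± 0.06), MAVS (-0.01 ± 0.06), CGAS (-0.20 ± 0.08) and TLR3 (0.16 ± 0.09) were not called.

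DHX58, GBP2 and SP100 were called higher in both lines, and ADAR and EIF2AK2 lower in both. ADAR lost its CFPAC1 call without replicate 1 or 2 of either group (adjusted p up to 0.108). IFITM1, IFITM2 and STING1 were called in opposite directions. Of all genes tested, 21.5% were called higher in ASPC1 and 11.6% in CFPAC1, and 24.2% and 13.2% lower. The shares called in both lines were not worked out. Tested as an interaction, 8 genes had a higher siZNF274-to-siCTRL change in CFPAC1 than in ASPC1 and 4 a lower one, where 9.28% and 7.37% of all genes were called. The count of 4 was 2 without ASPC1 siCTRL replicate 3 or CFPAC1 siCTRL replicate 2. The largest of those called were IFITM1 (1.31 ± 0.27, edgeR adjusted p = 9.77e-04), IFITM2 (1.31 ± 0.14, edgeR adjusted p = 1.55e-07) and IFITM3 (0.89 ± 0.11, edgeR adjusted p = 1.49e-06). Outside the 51, SOCS1, a feedback inhibitor of the JAK kinases, was higher in both lines (1.39 ± 0.32 in ASPC1 and 0.72 ± 0.23 in CFPAC1), LAMP3 was lower in both (-1.13 and -0.94) and TNFSF10, the death ligand TRAIL, was lower in ASPC1 (-1.38 ± 0.32) and higher in CFPAC1 (1.04 ± 0.08). The ASPC1 values rest on few counts. With siCTRL and siZNF274, LAMP3 had 14 to 17 and 6 to 9 per library, TNFSF10 21 to 38 and 7 to 14, and SOCS1 18 to 40 and 46 to 94. In CFPAC1, SOCS1 was at 4.62, 3.86 and 3.52 CPM with siCTRL and 9.78, 5.45 and 4.63 with siZNF274, where replicate 1 stood well above the others.

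Azacitidine is known to raise interferon-stimulated genes in some cells through transcripts of demethylated repeats. In CFPAC1, 8 of the 51 genes were called higher with AZA than with DMSO and 2 lower, with a median of 0.11, where 12.2% of all genes were called higher and 13.5% lower. The called log2 fold changes ran from -0.27 to 0.70. Leukocyte markers together were at 3.23 to 3.57 CPM with DMSO and 6.59 to 6.86 with AZA, endothelial markers at 1.19 to 1.39 and 5.15 to 5.24, fibroblast markers at 146.8 to 158.5 and 94.0 to 99.3 and ductal epithelial markers at 10045 to 10588 and 9191 to 9487; their part was not tested. The count of 8 was 4 without AZA replicate 2 or without DMSO replicate 1, and the count of 2 was 1 without AZA replicate 1 or 3 and 4 without DMSO replicate 3. CMPK2 changed most, from 3.65, 5.16 and 5.11 CPM with DMSO to 7.01, 8.39 and 7.18 with AZA (log2 fold change 0.70 ± 0.16, edgeR adjusted p = 0.00473). IRF7 was at 17.9, 20.2 and 22.7 and 29.1, 29.5 and 28.0 CPM (log2 fold change 0.51 ± 0.13, edgeR adjusted p = 0.00854), and STING1 at 43.9, 48.4 and 41.8 and 53.8, 56.2 and 56.8 (log2 fold change 0.31 ± 0.06, edgeR adjusted p = 0.00131). The IFIT and OAS families held no call, 0 of 8. IFI44L, several-fold higher in the siCTRL libraries, was at 15.5, 20.2 and 14.4 CPM with AZA against 16.5, 15.4 and 16.4 with DMSO (log2 fold change 0.05 ± 0.12, edgeR adjusted p = 0.792).

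IFI35 was also higher with AZA in CFPAC1 (0.32 ± 0.06) and ZC3HAV1 lower (-0.27 ± 0.06). BST2 (0.41 ± 0.13), DHX58 (0.33 ± 0.10), HERC5 (0.32 ± 0.09), XAF1 (0.24 ± 0.08) and LGALS3BP (-0.20 ± 0.05) were called, but each call was lost when 1 of several libraries was left out. For BST2 these were AZA replicates 1 and 2 and DMSO replicates 1 and 2 (adjusted p up to 0.119), and for XAF1 AZA replicates 1 and 2 and DMSO replicates 1 and 3 (up to 0.200). For DHX58 they were AZA replicates 2 and 3 and DMSO replicate 1 (up to 0.112), for HERC5 AZA replicate 2 and DMSO replicates 1 and 2 (up to 0.133), and for LGALS3BP AZA replicates 1 and 3 (up to 0.0565). AZA replicate 2 was the highest of its group for 38 of the 51 genes. IFIH1 (0.15 ± 0.06), MAVS (0.04 ± 0.06), CGAS (0.10 ± 0.08) and TLR3 (0.02 ± 0.09) were not called. Of 44 further interferon-stimulated genes, 17 were higher and 5 lower, led by GBP5 (log2 fold change 2.15 ± 0.41, edgeR adjusted p = 0.00112) and the chemokine CXCL11 (log2 fold change 1.27 ± 0.45, edgeR adjusted p = 0.0459). Both rest on few counts. GBP5 had 10, 2 and 5 with DMSO and 34, 25 and 27 with AZA, and CXCL11 had 8, 5 and 2 and then 14, 10 and 17.

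In ASPC1, 5 of 46 genes were called higher with AZA and 13 lower, with a median of -0.12, where 17.2% of all genes were called higher and 18.6% lower. The count of 5 was 3 without AZA replicate 3. Ductal epithelial markers together were at 13776 to 15463 CPM with DMSO and 9552 to 9864 with AZA and endothelial markers at 0.40 to 0.563 and 0.774 to 1.40, and their part was not tested. GBP1 fell from 1.59, 1.80 and 1.36 to 0.429, 0.625 and 0.723 CPM (log2 fold change -1.40 ± 0.26, edgeR adjusted p = 5.75e-04). TLR3 fell from 2.79, 2.25 and 2.00 to 1.23, 1.46 and 1.06 CPM (log2 fold change -0.91 ± 0.20, edgeR adjusted p = 0.00182), DHX58 from 4.58, 5.38 and 5.65 to 3.86, 2.63 and 3.02 (log2 fold change -0.72 ± 0.14, edgeR adjusted p = 0.00101) and USP18 from 3.35, 2.76 and 3.17 to 1.89, 1.25 and 2.14 (log2 fold change -0.82 ± 0.17, edgeR adjusted p = 0.00146). These are low levels. No AZA library reached the DMSO range, but genes were named partly because their groups did not overlap. IFITM1 (-0.76 ± 0.14), TRIM21 (-0.54 ± 0.09), PARP9 (-0.51 ± 0.08) and LGALS3BP (-0.42 ± 0.05) were also lower. BST2 rose from 4.01, 4.62 and 5.30 to 7.30, 7.44 and 7.61 CPM (log2 fold change 0.68 ± 0.12, edgeR adjusted p = 4.76e-04), IRF7 from 11.2, 10.9 and 11.9 to 18.6, 18.9 and 18.4 (log2 fold change 0.72 ± 0.09, edgeR adjusted p = 1.38e-05) and HERC5 by 0.58 ± 0.15 on the log2 scale. IFI6 was called higher at under 1 CPM (log2 fold change 1.31 ± 0.44, edgeR adjusted p = 0.0282) and lost the call without AZA replicate 1 or 3 or DMSO replicate 2 or 3 (adjusted p up to 0.0823). IFIH1 (-0.11 ± 0.15), MAVS (0.01 ± 0.05), STING1 (-0.03 ± 0.07) and CGAS (0.23 ± 0.10) were not called.

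IRF7, BST2, HERC5 and IFI35 were called higher with AZA in both lines, LGALS3BP lower in both, and DHX58 in opposite directions. IFI35 lost its ASPC1 call without AZA replicate 2 or 3 or DMSO replicate 1 (adjusted p up to 0.163). BST2, HERC5, DHX58 and LGALS3BP lost their CFPAC1 calls when certain single libraries were left out, as given above. Of all genes tested, 17.2% were called higher in ASPC1 and 12.2% in CFPAC1, and 18.6% and 13.5% lower. The shares called in both lines were not worked out. As an interaction, 12 genes had a higher AZA-to-DMSO change in CFPAC1 than in ASPC1 and 0 a lower one, where 8.66% and 8.65% of all genes were called. Without adjustment, 16 were higher and 1 lower at p under 0.05, and DESeq2 called 13 and 0. The count of 0 was 1 without ASPC1 DMSO replicate 1 (XAF1) or CFPAC1 DMSO replicate 3 (ZC3HAV1). The largest of those called were GBP1 (1.34 ± 0.25, edgeR adjusted p = 2.38e-04), DHX58 (1.06 ± 0.18, edgeR adjusted p = 6.76e-05) and IFITM1 (1.02 ± 0.24, edgeR adjusted p = 0.00278). The AZA and siCTRL comparisons of a line share their DMSO libraries. In CFPAC1, of the 44 genes called higher in siCTRL, 8 were also higher with AZA, 2 were lower and 34 were not called. Of all genes tested there, 12.2% were called higher with AZA and 13.5% lower. The same split over all genes called higher in siCTRL was not worked out, so the overlap is only described.

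In Panc3.27, where ZNF274 was overexpressed, 10 of 50 genes were called higher and 11 lower, with a median of -0.01, where 19.8% of all genes were called higher and 17.1% lower. The count of 11 lower was 7 without OE replicate 1 or 3. Endothelial markers together were at 30.6 to 31 CPM with vector and 55.0 to 58.4 with OE, fibroblast markers at 76.2 to 77.6 and 55.3 to 58.2 and ductal epithelial markers at 5557 to 5799 and 5166 to 5224, and their part was not tested. IFIT1 fell from 1.77, 2.12 and 1.69 CPM in the vector libraries to 1.06, 1.02 and 1.32 with OE (log2 fold change -0.71 ± 0.20, edgeR adjusted p = 0.0116). HERC6 fell from 18.6, 15.7 and 15.6 to 11.9, 10.7 and 10.0 CPM (log2 fold change -0.61 ± 0.09, edgeR adjusted p = 1.42e-04) and PARP9 from 32.4, 27.8 and 28.4 to 22.5, 21.1 and 21.9 (log2 fold change -0.43 ± 0.07, edgeR adjusted p = 2.28e-04). IFITM1 rose from 6.71, 7.09 and 8.12 to 11.3, 10.6 and 11.1 CPM (log2 fold change 0.59 ± 0.09, edgeR adjusted p = 1.95e-04) and XAF1 from 2.56, 2.30 and 2.18 to 3.64, 4.23 and 3.99 (log2 fold change 0.76 ± 0.14, edgeR adjusted p = 7.13e-04). The groups of these 5 genes did not overlap, but genes were named partly for that.

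OAS1 (0.57 ± 0.15), STAT2 (0.34 ± 0.05) and PARP14 (0.33 ± 0.05) were also higher with OE. IFI44L (-1.33 ± 0.41, under 1 CPM throughout) and MX1 (-0.65 ± 0.23) were lower and IFI6 (0.56 ± 0.19) higher, and each lost its call when 1 of several libraries was left out. For IFI44L these were vector replicate 3 and OE replicate 1 (adjusted p up to 0.0982), for IFI6 vector replicate 1 and OE replicate 3 (up to 0.137), and for MX1 vector replicates 1 and 2 and OE replicates 1 and 3 (up to 0.156). Of the sensors and adaptors, IFIH1 was at 14.9, 15.1 and 15.5 and 19.4, 17.6 and 18.7 CPM (log2 fold change 0.29 ± 0.07, edgeR adjusted p = 0.00360) and DHX58 at 2.43, 2.79 and 1.93 and 3.64, 3.53 and 3.52 (log2 fold change 0.58 ± 0.15, edgeR adjusted p = 0.00890), both higher. MAVS (0.10 ± 0.05), STING1 (-0.01 ± 0.07), CGAS (-0.05 ± 0.05) and TLR3 (-0.14 ± 0.24) were not called. Of 44 further interferon-stimulated genes, 23 were higher with OE and 3 lower, led by GBP4 (log2 fold change 1.63 ± 0.25, edgeR adjusted p = 1.75e-04), the chemokine CXCL10 (log2 fold change 1.14 ± 0.40, edgeR adjusted p = 0.0358) and GBP5 (log2 fold change 0.97 ± 0.14, edgeR adjusted p = 1.04e-04). CXCL10 rests on 8, 11 and 5 counts with vector and 17, 18 and 13 with OE.

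CUT&RUN in ASPC1 (antibody-guided cleavage of chromatin) gave a list of 63955 broad peaks of H3K9me3, the repressive histone mark that ZNF274 is known to recruit. A peak overlapped the body of 17 of the 51 genes (33.3%), against 30.7% of all 36843 genes. At least 50% of the body was covered for 3 genes (5.88%, against 5.78%): SAMD9 at 83.5%, CMPK2 at 78.4% and IFIT2 at 53.2%. A peak lay within 1000 bases of the upstream end of the gene's annotated span for 4 of the 39 genes with a known strand (10.3%, against 6.37% of 18355 genes). These were ADAR, SAMD9, IFI44 and IRF1. The span is that of the count table, and its end can lie far from the start used for the promoter windows. For ISG15 the span begins at base 1001138 and the promoter stretch shown above at base 1013372. In the authors' deposited table, every peak that overlapped a gene body of the 51 was marked as not changed between shZNF274 and shCTRL, as were 98.9% of all 63955 peaks. The 3 most covered genes were called lower (SAMD9 and CMPK2) or not called (IFIT2) in ASPC1 siCTRL against DMSO, and none of the 3 was called in ASPC1 siZNF274 against siCTRL.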

How the data were processed

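The RNA-seq table deposited by the authors holds raw whole-number counts per gene and library, not normalized. The submitters' processing notes name STAR 2.7.10b and hg38, and library preparation was stranded and depleted of ribosomal RNA from 500 ng of total RNA, per the labels' protocols. Of the counting step, neither the program nor the strand setting is given in the sources used here. The H3K9me3 list was used as deposited, with the authors' not-changed marks; its deposited score was not used. Its hairpins were induced with 1 µg/ml doxycycline for 9 days, per the labels.

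Counts were scaled by the trimmed mean of M-values, genes with low counts were dropped with filterByExpr, and ASPC1, CFPAC1 and Panc3.27 were fitted separately in edgeR 4.0.16 under R 4.3.3 (quasi-likelihood test, Benjamini-Hochberg over all genes tested: 16186 in ASPC1, 18103 in CFPAC1 and 17350 in Panc3.27). All 51 genes passed in CFPAC1, 46 in ASPC1 (not IFI27, MX2, TRIM22, IFI44L or XAF1) and 50 in Panc3.27 (not MX2). Interactions and the comparison of lines used 1 fit of 24 libraries and 19094 genes. Alternatives were other scalings, no filter, DESeq2 1.42.0, only the groups compared, a replicate block and each library left out. The scripts were tested on simulated data.

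The genes and lists were chosen with earlier results of these data known. Up to 12 called genes with groups that did not overlap, taken by size of change, the 6 sensors and adaptors, and up to 5 pathway genes were named per comparison. A lack of overlap in genes so named is therefore no result of its own. Deviations of same-numbered libraries correlated above 0.1 in every pair only in ASPC1 siCTRL against DMSO, at 0.33, 0.12 and 0.31. In CFPAC1 siZNF274 against siCTRL they correlated at 0.41, 0.09 and 0.11. Promoter sequences are RefSeq's.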

Additional observations from a re-analysis of the deposited data

Results flagged for a closer look

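Differences between the 2 lines were tested as interactions of line and treatment in the edgeR fit of 24 libraries, as the change in CFPAC1 minus the change in ASPC1, and those that passed are listed by size.

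For siCTRL against DMSO, 40 genes had a higher change in CFPAC1 and 0 a lower one. The largest interaction log2 fold changes among those called were 2.83 for OAS2, 2.78 for IFITM1, 2.5 for IFI27, 2.47 for MX2, 2.45 for CMPK2 and 2.40 for MX1. They were followed by 2.09 for RSAD2, 2.03 for XAF1, 2.03 for EPSTI1, 1.96 for OAS1, 1.95 for ISG15 and 1.84 for OASL. IFI27, MX2 and XAF1 lost their calls when certain single ASPC1 libraries were left out (adjusted p up to 0.0867, 0.282 and 0.184), and had at most 15 counts in any ASPC1 library.

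For AZA against DMSO, 12 genes had a higher change in CFPAC1 and 0 a lower one. They were GBP1 (1.34), DHX58 (1.06), IFITM1 (1.02), TLR3 (0.94), USP18 (0.87), PARP9 (0.64), IRF1 (0.55), DTX3L (0.53), GBP2 (0.42), STING1 (0.36), PARP14 (0.27) and LGALS3BP (0.23). LGALS3BP lost its call when any 1 library was left out other than ASPC1 AZA replicate 3 or ASPC1 DMSO replicate 1 (adjusted p up to 0.150). GBP2 lost it without ASPC1 AZA replicate 2 or ASPC1 DMSO replicate 2 (up to 0.0725), and PARP14 without CFPAC1 AZA replicate 2 (0.05002).

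For siZNF274 against siCTRL, 8 genes had a higher change in CFPAC1 and 4 a lower one. The higher ones were IFITM1 (1.31), IFITM2 (1.31), IFITM3 (0.89), STING1 (0.86), TLR3 (0.71), IFIT2 (0.53), LGALS3BP (0.49) and IRF1 (0.39). The lower ones were SAMD9 (-0.53), OAS3 (-0.49), STAT2 (-0.45) and OAS1 (-0.34). OAS1 lost its call without ASPC1 siCTRL replicate 3, ASPC1 siZNF274 replicate 1 or 2, CFPAC1 siCTRL replicate 2 or 3 or CFPAC1 siZNF274 replicate 1 (adjusted p up to 0.0892). OAS3 lost it without ASPC1 siCTRL replicate 3 or CFPAC1 siCTRL replicate 2 (up to 0.0662), and TLR3 without ASPC1 siCTRL replicate 2 (0.0528).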

How the results depend on the processing

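Over the 642 results for single genes, 8009 of 8368 alternative values kept their side of the threshold and, where called, their direction, 217 missed it, 142 newly passed it and 0 called values changed sign. The lead count, 44 genes higher in CFPAC1 siCTRL than DMSO, ran from 41 to 44 with 1 library left out, and its median log2 fold change from 0.78 to 0.92 over the alternatives. The count of lower genes there ran from 0 to 1. The medians of siZNF274 against siCTRL changed sign, from -0.08 to 0.01 in ASPC1 and from -0.03 to 0.02 in CFPAC1.

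With no filter on low counts, 13 genes in place of 8 were higher in CFPAC1 siZNF274 against siCTRL. In CFPAC1 AZA against DMSO, 13 in place of 8 were higher with upper quartile scaling, 13 with no filter and 13 with only the groups compared. With upper quartile scaling, 0 in place of 1 were lower in CFPAC1 siZNF274 against DMSO. The cause was not tested. With 1 library left out, genes lower in CFPAC1 siZNF274 ran from 3 to 8 against siCTRL and from 0 to 1 against DMSO. Genes higher with AZA ran from 3 to 6 in ASPC1 and from 4 to 8 in CFPAC1, where genes lower ran from 1 to 4. Genes lower with OE ran from 7 to 11, and lower interactions from 2 to 6 for siZNF274 and from 0 to 1 for AZA. A cover of at least 50% of the gene body by H3K9me3 peaks left 3 of 17 genes. A window of 5000 bases around the upstream end of the gene's span held a peak for 12 in place of 4 (30.8%, against 14.9% of all genes with a known strand).

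A replicate block moved no count of called genes by over 1.5 times. In ASPC1 siCTRL against DMSO every same-numbered pair of libraries correlated above 0.1. The block gave 3 genes higher and 21 lower there, adding ISG15 (log2 fold change -0.29, edgeR adjusted p = 0.0387) and EIF2AK2 (-0.14, edgeR adjusted p = 0.0468). Elsewhere not every pair did. With the block, 45 and 0 genes were higher and lower in CFPAC1 siCTRL against DMSO. For siZNF274 against siCTRL there were 11 and 7 in CFPAC1 and 8 and 15 in ASPC1. For AZA against DMSO there were 9 and 3 in CFPAC1 and 6 and 15 in ASPC1, and 10 and 12 with OE. In CFPAC1 siZNF274 against siCTRL the pairs correlated at 0.41, 0.09 and 0.11. The block added IFI6 (log2 fold change 0.42, edgeR adjusted p = 0.0495), IRF7 (0.30, edgeR adjusted p = 0.0233) and IFI27 (0.31, edgeR adjusted p = 0.0358) there. Depth limits genes with few counts, such as IFI27, MX2, TRIM22, IFI44L and XAF1 in ASPC1.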
